A study of Mus musculus with 4 samples.

Results

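Among nuclei of the mouse basolateral amygdala (BLA), 182 of 27313 barcodes met a marker rule for Rspo2 Adamts2 excitatory nuclei. They carried the secreted Wnt agonist gene Rspo2 together with more transcripts of the procollagen protease gene Adamts2 than of the collagen gene Col5a2. Clustering placed 28 of the 182 in clusters led by markers of other cell types. The nuclei were chosen by their measured UMIs (unique molecular identifiers, one per captured transcript). A barcode counted as one of these Rspo2 Adamts2 nuclei when it had at least 500 genes, under 5% mitochondrial and under 25000 total UMIs, at least 1 Slc17a7 UMI, at most 1 UMI of Gad1 and Gad2 together, at least 2 of Rspo2, at most 3 of Rorb, and at least 2 more of Adamts2 than of Col5a2. The 4 libraries were single-nucleus 3′ RNA libraries (10x Genomics, v3 chemistry) of the bilateral BLA of C57BL/6J mice, made 6 h after intraperitoneal tamoxifen, which both groups received. DISC1-N mice, a line named for the psychiatric risk gene Disc1, gave 2 libraries with 38 and 62 Rspo2 Adamts2 nuclei, and wild-type (WT) mice gave 2 libraries with 28 and 54. The tissue came from pools of 5 mice per group, so the replicates may share mice, and p-values then reflect only the spread between libraries, which may be technical. The sources used here do not give the construct or promoter of the DISC1-N line, what tamoxifen induces, or the age of the mice. The study compared the genotypes to find which cells of the BLA differ in them. Here the nuclei are described first against Slc17a7 nuclei without Rspo2, then against their counterpart with more Col5a2 than Adamts2, and last between genotypes.

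R-spondin 2, the product of Rspo2, is secreted, binds the receptors Lgr4, Lgr5 and Lgr6, and blocks the ubiquitin ligases Znrf3 and Rnf43, which keeps Wnt receptors at the cell surface. In the mouse BLA, Rspo2 is known as a marker of large excitatory neurons of the anterior part that respond to aversive events. Adamts2 encodes an extracellular protease that trims the amino-terminal propeptides of fibrillar procollagens, and Col5a2 encodes a chain of the fibrillar type V collagen. Etv1, an ETS-family transcription factor gene used in the cortex to mark neurons of layer 5, was proposed as the third marker of these nuclei. In mm10, Rspo2 lies at chr15:43020794-43170826 on the minus strand and Adamts2 at chr11:50602084-50807573 on the plus strand, where it overlaps 3 gene models of the other strand. Col5a2 lies at chr1:45374321-45503282 on the minus strand and Etv1 at chr12:38779380-38870484 on the plus strand.

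The libraries held 37840301 to 48439711 UMIs and 4189 to 8168 nuclei that passed the filters on genes, mitochondrial UMIs and depth. Both replicate 1 libraries were processed with Cell Ranger 7.0.0 and both replicate 2 libraries with 6.0.2, per the file headers, so the replicate number stands for a processing batch that is balanced over genotype. Median mitochondrial share of the Rspo2 Adamts2 nuclei followed that number, at 0.0530% in DISC1-N and 0.0918% in WT replicate 1 and 0.0121% in DISC1-N and 0.0125% in WT replicate 2. Libraries shared 5 to 21 barcodes per pair, and none of the Rspo2 Adamts2 nuclei was among them. Their median depth was 11840 UMIs, against 11745 in the Col5a2 counterpart and 5513 in Slc17a7 nuclei without Rspo2.

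The genes of the rule are given as a description only, since they chose the nuclei. Rspo2 ranged over 2 to 14 UMIs per nucleus with a median of 3.5, Adamts2 over 2 to 11 with a median of 3, and Slc17a7 over 1 to 15 with a median of 2. Summed per library, Adamts2 stood at 239.6 and 241 CPM (UMIs of a gene per 1000000 UMIs of the population in that library) in DISC1-N and at 239 and 246 CPM in WT libraries, the values lying within a few CPM of each other. Rspo2 stood at 282 and 364 CPM in DISC1-N and at 274 and 364 CPM in WT libraries, so both replicate 1 libraries were lower than both replicate 2 libraries. Col5a2 was low in all 4, at 7.26 to 12 CPM, and 161 of the 182 nuclei had no Col5a2 UMI. Rorb was absent from 160 nuclei, Gad1 from 169 and Gad2 from 162. The thresholds cut through a continuous range. The margin of Adamts2 over Col5a2 was exactly 2 in 92 nuclei and 3 or more in 90, and 198 further Rspo2 nuclei had a margin of 1. Rspo2 was exactly 2 UMIs in 57 nuclei, and 73 nuclei met every other condition with 1 Rspo2 UMI. A further 14 were left out by Rorb and 25 by the limit of 25000 UMIs.

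Etv1, which the rule did not count, was present in nearly every one of these nuclei. It stood at 677 and 813 CPM in DISC1-N and at 593 and 858 CPM in WT libraries (735 ± 122 CPM over the 4 libraries, SD). The Rspo2 Col5a2 nuclei had 271 and 355 CPM in DISC1-N and 248 and 458 CPM in WT libraries, and the Rspo2-0 nuclei had 218 and 269 CPM in DISC1-N and 197 and 286 CPM in WT libraries. The lowest library of the Rspo2 Adamts2 nuclei was therefore above the highest of both other populations. The ranges of those other populations overlapped, but in each of the 4 libraries Rspo2 Col5a2 nuclei were above Rspo2-0 nuclei. At least 1 Etv1 UMI was found in 180 of 182 Rspo2 Adamts2 nuclei (98.9%), in 88.1% of Rspo2 Col5a2 nuclei and in 44.7% of Rspo2-0 nuclei. Oligodendrocytes, which are not known for this gene, had one in 20.4% of nuclei at a median of 1757 UMIs, a shallower depth than that of the neurons. Etv1 was named as a marker with these data in view, so no test between populations is given for it.

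**Figure D1:**
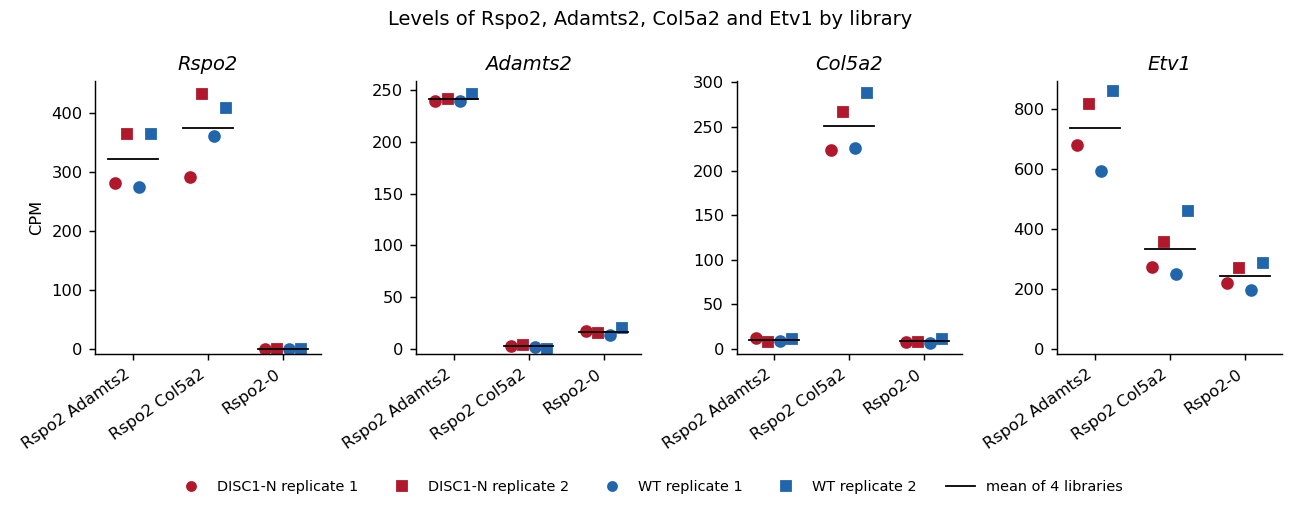
Summed level (CPM, linear axes that include 0) of Rspo2, Adamts2, Col5a2 and Etv1 in Rspo2 Adamts2, Rspo2 Col5a2 and Rspo2-0 nuclei, 1 point per library (red DISC1-N, blue WT, circles replicate 1, squares replicate 2) and a line at the mean of 4 libraries. Etv1 lies at 593 to 858 CPM in Rspo2 Adamts2 nuclei, above every library of the other populations.

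All 10 excitatory neuron markers were detected in the Rspo2 Adamts2 nuclei, with a summed level of 1664 to 1900 CPM, against 1435 to 1634 CPM in Rspo2-0 nuclei. Markers of other cell types were not absent. Inhibitory neuron markers summed to 67.5 to 299.5 CPM over 12 detected genes, astrocyte markers to 162 to 433 CPM over 8 and oligodendrocyte markers to 64.3 to 418 CPM over 8, each lower in the replicate 2 libraries. Of defining genes, Slc32a1 of inhibitory neurons had 1 to 3 UMIs per library and Aqp4 of astrocytes at most 2. When all 7362 Slc17a7 nuclei with at most 1 Gad UMI were clustered, 93 of the 182 nuclei (51.1%) fell in a cluster led by Adamts2, Dlc1, Mndal, Itgbl1 and Rspo2, and 38 (20.9%) in one led by Glipr1, Pla2g6 and Mirt1. The same clusters held 33 and 39 of the 201 Rspo2 Col5a2 nuclei, and Rspo2 Adamts2 nuclei made up 13.9% and 5.91% of all nuclei in them. Those clusters divided by replicate number. The first held 42 of 62 nuclei of DISC1-N and 43 of 54 of WT replicate 2 but 7 of 38 and 1 of 28 of replicate 1, and the second held 17 and 15 of replicate 1 in the same order. Beside these, the second held 18 and 15 Rspo2 Col5a2 nuclei of replicate 1, so it did not separate the 2 populations. A further 28 nuclei (15.4%) lay in clusters led by markers of microglia, oligodendrocytes, astrocytes, oligodendrocyte precursors, inhibitory neurons or vessel cells. They made up 28.9% and 12.9% of the nuclei of DISC1-N replicates 1 and 2 and 25.0% and 3.70% of those of WT replicates 1 and 2, and had a median of 15272.5 UMIs, against 11446 in the other 154. Scrublet, a doublet caller, marked 9 of the 182. None was removed. A further 6 nuclei (3.30%), 2 and 1 in DISC1-N and 2 and 1 in WT libraries, lay in a cluster led by Foxp2, Meis2, Pbx3 and Penk, which was not counted among those of other classes and stays in every fit.

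Against the 5519 Slc17a7 nuclei with no Rspo2 UMI, 275 genes were at least 2-fold higher and 781 at least 2-fold lower in the Rspo2 Adamts2 nuclei, which is 1.97% and 5.61% of 13928 genes tested (edgeR quasi-likelihood test on summed UMIs with library as a block, Benjamini-Hochberg adjusted p under 0.05). Tnc, Oprk1 and Itgbl1 had the largest fold rises of the genes named. Tnc, which encodes the matrix glycoprotein tenascin C, had 35.9 and 52.0 CPM in Rspo2 Adamts2 nuclei of DISC1-N and 46.1 and 48.6 CPM in those of WT libraries, against 6.66 and 3.73 CPM and 6.35 and 4.94 CPM in Rspo2-0 nuclei of the same libraries. No library of one population reached the range of the other, which the choice of named genes favours. The log2 fold change was 3.20 ± 0.25 (SE, edgeR adjusted p = 7.5e-13). The nucleus with most Tnc UMIs held 5 of 18 and 11 of 43 in DISC1-N and 6 of 16 and 10 of 31 in WT libraries. The gene was found in 24.2% of the nuclei and in 6.97% of the Rspo2 Col5a2 nuclei, which had a similar depth. It was found in 2.55% of Rspo2-0 nuclei and 1.29% of oligodendrocytes, both of which were shallower. Angpt1, the gene of the Tie2 receptor ligand angiopoietin 1, had 128 and 143 CPM in DISC1-N and 92.1 and 166 CPM in WT libraries, against 32.0 and 29.2 CPM and 27.5 and 41.4 CPM in Rspo2-0 nuclei. Its log2 fold change was 2.13 ± 0.12 (SE, adjusted p = 2.6e-16).

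Cdh9, a classical cadherin gene, rose in all 4 libraries, which the choice of named genes required. Rspo2 Adamts2 nuclei had 1349.8 and 1413 CPM in DISC1-N and 1327 and 1441 CPM in WT libraries, against 423 and 358 CPM and 376 and 312 CPM in Rspo2-0 nuclei (log2 fold change 2.0 ± 0.07, SE, adjusted p = 6.4e-23). A Cdh9 UMI was present in 181 of the 182 nuclei. Dlc1, a GTPase-activating protein gene, averaged 786 ± 169 CPM, against 194 ± 27.0 CPM in Rspo2-0 nuclei (SD, 4 libraries each, log2 fold change 2.10 ± 0.08). Receptor genes rose too. Npsr1, the neuropeptide S receptor, averaged 377 ± 64.5 CPM, against 96.9 ± 11.1 CPM, and Oprk1, the kappa opioid receptor, 47.1 ± 19.9 CPM, against 11.2 ± 1.79 CPM. Sema3e, a secreted semaphorin, averaged 181 ± 52.5 CPM, against 54.2 ± 3.52 CPM. Most of these rises were shared with the Rspo2 Col5a2 nuclei. Against those, Cdh9 (log2 fold change 0.07), Oprk1 (-0.36) and Sema3e (0.16) were not called, while Dlc1 was higher (0.46 ± 0.08). Npsr1 was lower there (-0.36, edgeR adjusted p = 0.0245), but not called without the clusters of other classes (-0.24, adjusted p = 0.249).

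The other rises named by rule were Itgbl1, a secreted integrin-like protein, Spef2, the sodium-proton exchanger Slc9a2, galectin 9 (Lgals9), the phosphatase CD45 (Ptprc), the zinc-finger factor Glis1, Mndal of the interferon-inducible p200 family, and the long non-coding RNA Mirt1. Their log2 fold changes ran from 1.91 for Mirt1 to 2.24 for Itgbl1. Ptprc is best known from leukocytes, and 8 of the 182 nuclei lay in the cluster led by microglial genes. It was spread over 107 nuclei, with log2 fold changes of 2.07 ± 0.14 with and 2.15 without the clusters of other classes. Lgals9 rested on fewer nuclei, 27 of 182, and the nucleus with most UMIs held 19 of the 51 UMIs of DISC1-N replicate 2. Mndal overlaps other genes of its family on the same strand, so its reads may be shared with them.

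**Figure D2:**
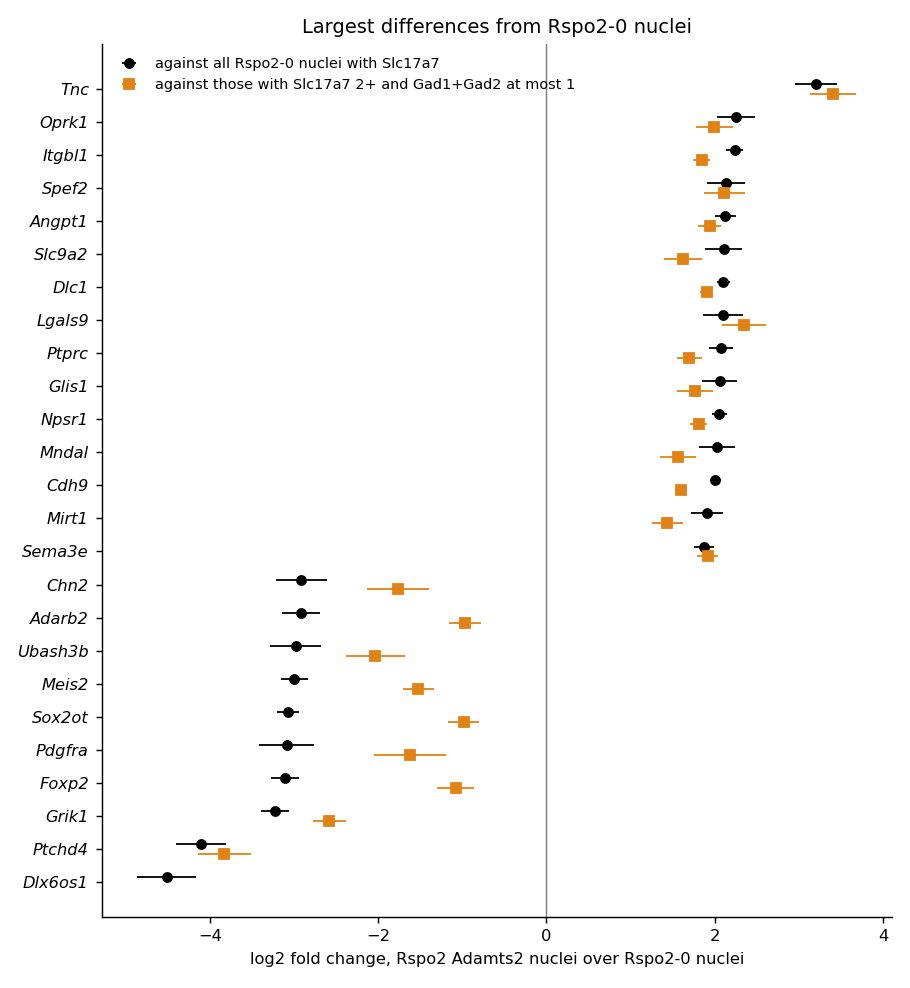
Log2 fold change of Rspo2 Adamts2 nuclei over Rspo2-0 nuclei for the 15 largest rises and 10 largest falls, with SE. Black circles are against all Rspo2-0 nuclei and orange squares against those with Slc17a7 at 2 or more and at most 1 Gad UMI (Dlx6os1 was not tested there). The rises keep values of 1.44 to 3.41 in the second comparison, and most falls shrink.

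The largest falls included genes of other cell types. The Rspo2-0 nuclei needed only 1 Slc17a7 UMI, and carried inhibitory markers at 899 to 1194 CPM, astrocyte markers at 622 to 873 CPM and oligodendrocyte markers at 328 to 569 CPM. Dlx6os1 of inhibitory neurons (log2 fold change -4.51), Pdgfra of oligodendrocyte precursors (-3.08) and the long non-coding RNA Sox2ot (-3.07) led the falls together with Foxp2 (-3.10), Meis2 (-3.00), Adarb2 (-2.91), Ubash3b (-2.98) and Chn2 (-2.91). Against the 1865 Rspo2-0 nuclei with Slc17a7 at 2 or more and at most 1 Gad UMI, 151 genes were higher and 331 lower (1.31% and 2.86% of 11554), and Foxp2 came to -1.08, Sox2ot to -0.98 and Adarb2 to -0.97. Ptchd4 and Grik1 kept the largest falls of those 10 there. Ptchd4, a patched-domain gene, had 7.99 and 4.84 CPM in DISC1-N and 0 and 1.57 CPM in WT libraries, against 65.1 and 64.0 CPM and 77.4 and 82.0 CPM in Rspo2-0 nuclei, with a log2 fold change of -4.11 ± 0.30 (SE) and of -3.83 in the stricter comparison. Grik1, a kainate receptor subunit gene, had 14 and 20.6 CPM in DISC1-N and 8.64 and 15.7 CPM in WT libraries, against 145 and 160.4 CPM and 155 and 168 CPM, with -3.23 ± 0.17 and -2.58.

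By gene list, counted at an adjusted p under 0.05 (7.56% of all genes tested were higher and 9.53% lower, with a median log2 fold change of -0.03), 12 of 24 glutamate receptor genes rose and 5 fell, with a median of 0.22. Metabotropic Grm8 rose by 0.93 ± 0.05 and the AMPA subunit Gria1 by 0.51 ± 0.05, while Grik1 was among the falls. Of 17 GABA and glycine receptor genes 2 rose and 7 fell, the falls including the glycine receptor Glra3 (-2.85 ± 0.27), while none of 16 rose and 7 fell against the stricter Rspo2-0 nuclei and none of 17 rose and 8 fell without the clusters of other classes. Among 52 potassium and HCN channel genes 14 rose, such as the Kv4 partner Dpp10 (0.98 ± 0.04) and the calcium-activated Kcnn2 (0.94 ± 0.07), and 10 fell, led by the Kv3 channel Kcnc2 (-2.82 ± 0.16). Of 38 peptide, monoamine and acetylcholine receptor genes, 8 rose and 10 fell. The serotonin receptor genes Htr1f and Htr2c moved in opposite directions, Htr1f with a log2 fold change of 1.17 ± 0.06 and Htr2c with -1.03 ± 0.09.

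In the R-spondin and Wnt list, 6 of 32 tested genes rose and 4 fell. The rises were the orphan receptor kinase Ror1, a Wnt receptor, which averaged 124 ± 19.6 CPM, against 45.8 ± 3.58 CPM (log2 fold change 1.54 ± 0.12), the Wnt cargo receptor Wls (0.85 ± 0.11), Dkk3 (1.00 ± 0.17), the R-spondin receptor Lgr5 (1.65 ± 0.28), Wnt4 (1.04 ± 0.29) and Kremen1 (0.98 ± 0.27). Wnt4 was not called without DISC1-N replicate 1 (adjusted p = 0.0593), nor Kremen1 without DISC1-N replicate 2 (adjusted p = 0.158). Against the stricter Rspo2-0 nuclei 5 of 23 rose, Kremen1 not among them, and 3 fell, and without the clusters of other classes 5 of 24 rose, Wnt4 not among them, and 2 fell. The nuclear effector Tcf7l2 fell to 5.65 ± 2.31 CPM, against 35.7 ± 5.92 CPM, and was not called at matched depth (-0.99, adjusted p = 0.116). Znrf3, the ligase that R-spondins block, had a log2 fold change of -0.04 ± 0.11 and was not called. Of 19 ADAMTS and fibrillar collagen genes other than those of the rule, Adamtsl1 rose (1.17 ± 0.07) and 7 fell, among them Adamts3 (-1.91 ± 0.26), another procollagen amino-propeptidase, and Adamts18 (-1.37 ± 0.20). Of 50 cadherin and synaptic adhesion genes 18 rose and 18 fell, with Tenm2 at 0.95 ± 0.05, Cdh13 at -2.31 ± 0.11 and Cntn5 at -2.08 ± 0.10. Of 40 axon guidance genes 11 rose, led by Slit2 (1.70 ± 0.07) and Plxna4 (1.37 ± 0.06), and 15 fell, led by the Slit receptor gene Robo1 (-1.36 ± 0.07).

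Lists that bear on nucleus quality moved down in the same comparison. Of 12 mitochondrially encoded genes 9 fell (median -0.76), of 76 nuclear-encoded oxidative phosphorylation genes 21 fell and none rose, and of 16 cytosolic heat shock genes 3 fell. Of all genes tested there 9.53% were lower. Against the 1865 stricter Rspo2-0 nuclei, 6 of 11, 3 of 76 and 2 of 15 fell (5.8% of the genes tested there were higher and 6.1% lower). The mitochondrial mt-Atp6 had a log2 fold change of -0.78 against all Rspo2-0 nuclei, -0.61 against the stricter ones and -0.17 against Rspo2-0 nuclei of matched depth (adjusted p = 0.584). Ndufa4, Cox8a, Hspa8, Hsp90ab1 and Hsp90aa1 also lost their calls at matched depth (edgeR adjusted p = 0.147 to 0.843).

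The Rspo2 Col5a2 nuclei met the same conditions with Col5a2 ahead of Adamts2 by at least 2, had nearly the same depth, and numbered 201. Against them, 84 genes were at least 2-fold higher and 71 at least 2-fold lower in Rspo2 Adamts2 nuclei (1.13% and 0.953% of 7453 tested). Gpc5, a cell-surface glypican gene at chr14:115092215-116525179, had 793 and 701 CPM in DISC1-N and 605 and 539.8 CPM in WT libraries, against 202 and 128 CPM and 191 and 101 CPM in Rspo2 Col5a2 nuclei. Rspo2 Adamts2 nuclei were higher in every library, which the choice of named genes required. The log2 fold change was 2.10 ± 0.11 (SE, edgeR adjusted p = 2.2e-19) and 3.39 without the clusters of other classes. Gpc5 was found in 88.5% of Rspo2 Adamts2 nuclei, 32.3% of Rspo2 Col5a2 nuclei and 38.4% of Rspo2-0 nuclei, and Rspo2-0 nuclei had 501 ± 43.4 CPM of it. Tnc, at chr4:63959785-64047015, stood at 45.7 ± 6.94 CPM, against 6.45 ± 2.31 CPM in Rspo2 Col5a2 nuclei (SD), with a log2 fold change of 2.80 ± 0.33.

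Vav3, a guanine nucleotide exchange factor gene, averaged 87.2 ± 20.6 CPM, against 20.2 ± 6.03 CPM in Rspo2 Col5a2 nuclei (log2 fold change 2.18 ± 0.22), and Rerg, a Ras-like GTPase gene, 85.4 ± 11.9 CPM, against 18.6 ± 9.44 CPM (2.34 ± 0.25). Rerg was found in 95 and Vav3 in 98 of the 182 nuclei. Mirt1 (2.71 ± 0.31), the copine Cpne2 (2.63 ± 0.38), Slc9a2 (2.28 ± 0.34), Mndal (2.20 ± 0.34) and the secretory pathway pseudokinase Fam20a (2.08 ± 0.30) also rose. The phospholipase gene Pla2g6 was called at 2.15 ± 0.20, but 1 nucleus held 42 of its 51 UMIs in DISC1-N replicate 1, 106 of 155 in DISC1-N replicate 2, 7 of 11 in WT replicate 1 and 51 of 79 in WT replicate 2.

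Against Rspo2 Col5a2 nuclei, Blnk had the largest fall of the genes named, and Chgb the lowest adjusted p of those 10. Chgb, which encodes the granin chromogranin B and lies at chr2:132781278-132795079, had 45.9 and 32.7 CPM in DISC1-N and 72.0 and 42.4 CPM in WT libraries, against 243 and 159 CPM and 269 and 247 CPM in Rspo2 Col5a2 nuclei (log2 fold change -2.30 ± 0.15, SE, adjusted p = 2.1e-16). Bdnf, the neurotrophin gene, had 22.0 and 23.0 CPM in DISC1-N and 28.8 and 12.6 CPM in WT libraries, against 75.2 and 79.9 CPM and 72.2 and 128 CPM (-2.08 ± 0.23). Its level in Rspo2-0 nuclei, 27.5 ± 1.99 CPM, was close to that of the Rspo2 Adamts2 nuclei, so here the Rspo2 Col5a2 nuclei stood apart. Blnk, an adaptor gene of B-cell receptor signalling, had 12 and 12.1 CPM in DISC1-N and 17.3 and 1.57 CPM in WT libraries, against 61.1 and 84.1 CPM and 35.1 and 80.6 CPM (-2.76 ± 0.31), with 11.4 ± 1.55 CPM in Rspo2-0 nuclei. Blnk was found in 9.34% of Rspo2 Adamts2 nuclei and 51.7% of Rspo2 Col5a2 nuclei.

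Netrin-G genes, which encode membrane-anchored adhesion proteins, changed in opposite directions. Ntng2 averaged 17.9 ± 4.55 CPM, against 94.7 ± 27.6 CPM in Rspo2 Col5a2 nuclei (log2 fold change -2.34 ± 0.22), and Ntng1 averaged 364 ± 24.1 CPM, against 147 ± 43.3 CPM (1.35 ± 0.12). Lrrc4c, the gene of the netrin-G1 ligand, rose by 0.32 ± 0.05 against Rspo2 Col5a2 nuclei. The semaphorin co-receptor Nrp1 (-2.28 ± 0.21), the neuropeptide gene Npy (-2.26 ± 0.32), the sorting receptor Sorcs3 (-1.95 ± 0.15), the activin-family receptor Acvr1c (-1.93 ± 0.22), and the secreted matrix genes Smoc2 (-2.58 ± 0.34) and Cthrc1 (-2.46 ± 0.40) fell. For Sorcs3, 39 of the 62 UMIs of WT replicate 1 came from 1 Rspo2 Adamts2 nucleus.

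**Figure D3:**
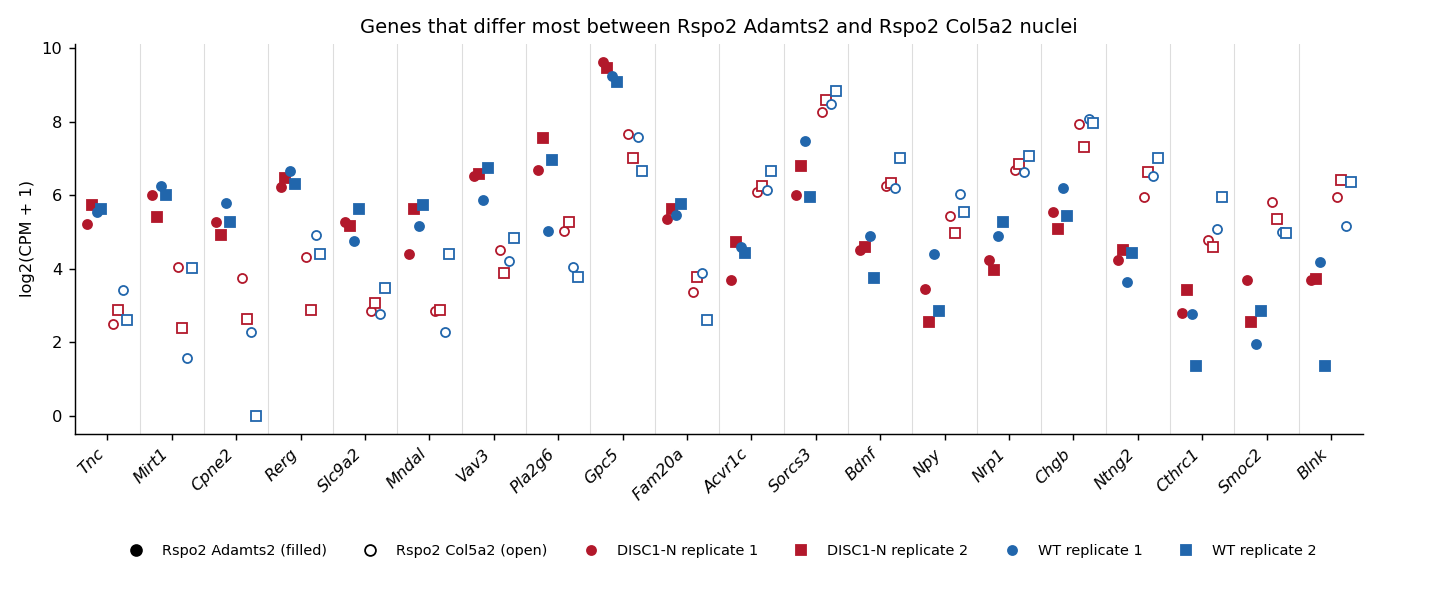
Levels as log2(CPM + 1) of the 10 largest rises (left) and 10 largest falls (right) in Rspo2 Adamts2 nuclei (filled) and Rspo2 Col5a2 nuclei (open), 1 point per library. For Gpc5, Chgb and Bdnf, among others, all filled points lie on one side of all open points.

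Of 18 neuropeptide, granin and secreted activity genes tested against Rspo2 Col5a2 nuclei, 8 fell and none rose (median log2 fold change -0.38; 4.4% of all 7453 genes were higher and 3.58% lower at an adjusted p under 0.05, with a median of -0.005). The 8 were Chgb, Bdnf, Npy, the convertase Pcsk2, Vgf, the granin Scg2 and the neuronal pentraxins Nptx1 and Nptx2. Scg2 was not called without WT replicate 2 (-0.97, adjusted p = 0.171) or without DISC1-N replicate 1 (adjusted p = 0.0554), and Nptx1 with any 1 library left out (adjusted p = 0.0651 to 0.229). Without the clusters of other classes 6 of 17 fell. Of 6 immediate early and activity-induced genes 3 fell, Bdnf and Nptx2 again and the scaffold gene Homer1 (-0.36 ± 0.12). Without the clusters of other classes 1 of 4 fell, which was Bdnf, Homer1 had -0.33 (adjusted p = 0.0942) and Nptx2 was not tested. Homer1 was also not called without DISC1-N replicate 1, DISC1-N replicate 2 or WT replicate 1 (adjusted p = 0.355, 0.222 and 0.067). Of 18 glutamate receptor genes 7 rose and none fell, among them Gria1 (0.53 ± 0.07), Grm8 (0.51 ± 0.07) and Grid1 (0.68 ± 0.10), while of 15 GABA and glycine receptor genes none rose and 4 fell, among them Gabrb2 (-0.43 ± 0.10) and Gabrb1 (-0.31 ± 0.07). Gabrb2 was not called without DISC1-N replicate 1 (adjusted p = 0.0676).

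Other receptor and channel genes divided. The serotonin receptor gene Htr1f averaged 854 ± 64.1 CPM, against 584 ± 29.4 CPM in Rspo2 Col5a2 nuclei and 401 ± 43.3 CPM in Rspo2-0 nuclei, and rose against both. Htr2c (-0.96 ± 0.11) and the muscarinic receptor gene Chrm2 (-0.99 ± 0.13) fell against Rspo2 Col5a2 nuclei. The calcium channel subunit gene Cacna2d3 averaged 157 ± 40.2 CPM, against 362 ± 37.7 CPM in Rspo2 Col5a2 nuclei (-1.18 ± 0.12), and Kcnc2 fell by 1.08 on the log2 scale. The leak potassium channel gene Kcnk9 was called at 0.85 ± 0.23, but not without the clusters of other classes (0.77, adjusted p = 0.0542), without DISC1-N replicate 1 (0.63, adjusted p = 0.178) or without WT replicate 2 (0.72, adjusted p = 0.111). Among 15 Wnt genes, Ror1 (0.68 ± 0.15), Znrf3 (0.71 ± 0.17) and Wls (0.49 ± 0.16) rose and Dkk3 (-0.68 ± 0.18) fell. Without the clusters of other classes Ror1 and Znrf3 rose and 1 of the 14 tested fell, and Wls had 0.46 (adjusted p = 0.0902). Without DISC1-N replicate 2 Ror1 (adjusted p = 0.0761), Wls (0.101) and Dkk3 (0.273) were not called, nor was Wls without WT replicate 2 (0.27, adjusted p = 0.504). By DESeq2 none of these 4 Wnt genes, nor Kcnk9, Kcnc2, Homer1, Gabrb2, Scg2 or Nptx1, was called against Rspo2 Col5a2 nuclei. Of 46 adhesion genes 10 rose and 12 fell. Tenm2, a teneurin gene, averaged 5244 ± 906 CPM, against 2433 ± 472 CPM (1.09 ± 0.07), and the protocadherin gene Pcdh15 692 ± 36.4 CPM, against 1419.9 ± 102 CPM (-1.05 ± 0.07). Of 29 axon guidance genes 6 rose, Slit2 (0.54 ± 0.08) and Unc5c (0.61 ± 0.08) among them, and 6 fell. None of the 9 mitochondrially encoded, 14 heat shock and 15 endoplasmic reticulum chaperone genes tested was called, and 1 of 69 oxidative phosphorylation genes was.

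The Rspo2 nuclei between these populations were used in neither. Along the margin of Adamts2 over Col5a2, which held 201, 213, 838, 198, 92 and 90 Rspo2 nuclei at -2 or less, -1, 0, 1, 2, and 3 or more, mean Gpc5 was 156, 214, 280.4, 509.9, 678 and 644 CPM. Chgb was 229, 159, 123, 64.9, 60.3 and 36.6 CPM in the same order, Bdnf 88.9, 60.8, 54.4, 22.2, 21.3 and 23.6 CPM, and Blnk 65.2, 45.9, 22.6, 11.7, 12.8 and 8.77 CPM. For these genes the nuclei with a margin of 1, just outside the rule, were nearer to those with 2 than to those with 0. Etv1 followed with 333, 432, 482, 710.2, 778 and 703 CPM. Nuclei with a margin of 0 held 4.83 CPM each of Adamts2 and Col5a2, which are equal there by definition. Rspo2 itself, which had to reach 2 UMIs in every nucleus of all bins, was nearly level, at 318 to 373 CPM. Since every library holds all 6 bins and the bins share their library, these are given without a test.

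**Figure D4:**
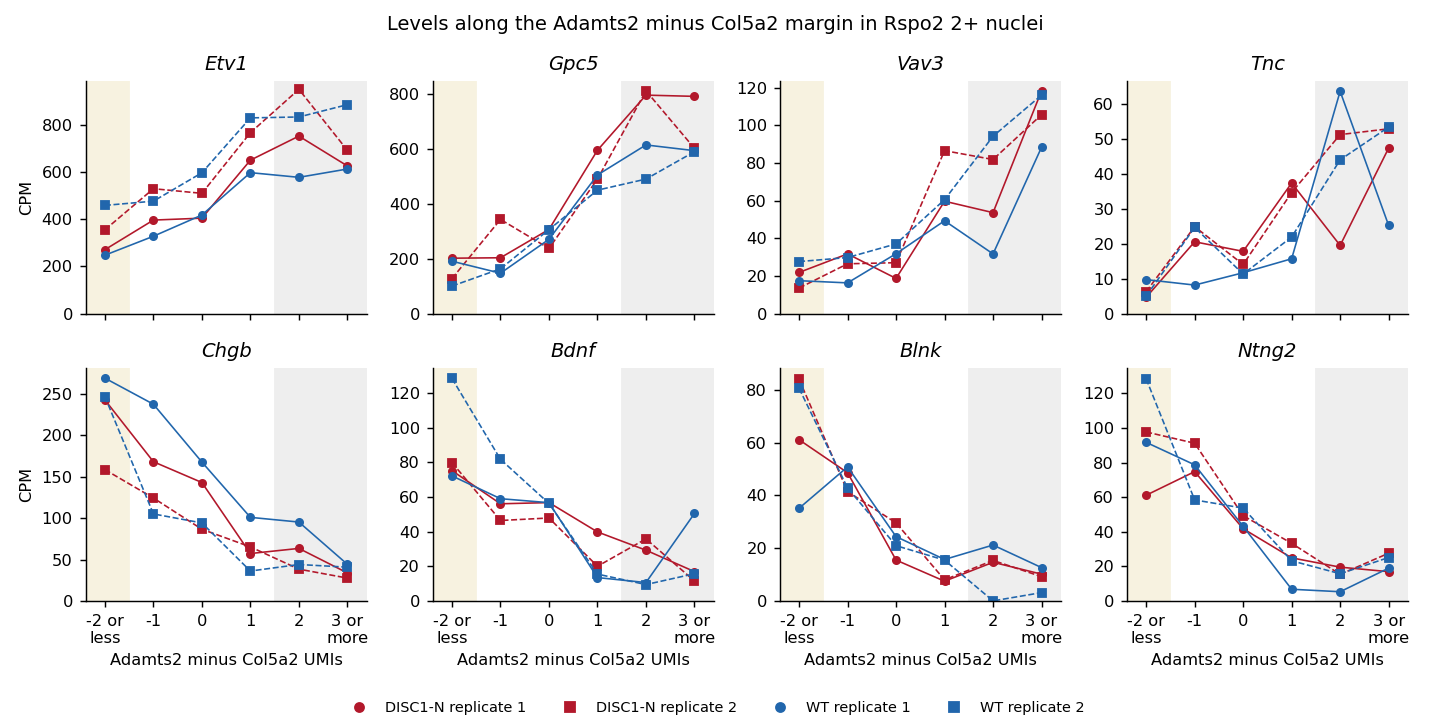
Summed level (CPM, linear axes from 0) of 8 genes against the margin of Adamts2 over Col5a2 UMIs in Rspo2 nuclei, 1 line per library (red DISC1-N, blue WT, solid replicate 1, dashed replicate 2). Grey marks the Rspo2 Adamts2 and tan the Rspo2 Col5a2 nuclei. Etv1, Gpc5, Vav3 and Tnc are higher and Chgb, Bdnf, Blnk and Ntng2 lower towards the right.

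Between genotypes, the share of Rspo2 Adamts2 nuclei among Slc17a7 nuclei with at most 1 Gad UMI differed by less than the spread of libraries. It was 2.36% (95% exact Clopper-Pearson interval 1.67% to 3.22%) and 3.35% (2.58% to 4.28%) in DISC1-N replicates 1 and 2, and 1.34% (0.892% to 1.93%) and 2.99% (2.25% to 3.88%) in WT replicates 1 and 2. These intervals cover counting error only. The means were 2.85 ± 0.704% in DISC1-N and 2.16 ± 1.17% in WT (SD, n = 2 each), a difference of 0.691 percentage points with a two-sided exact permutation p of 0.667, where 0.333 is the smallest this design allows. Within replicate numbers the difference was 1.02 and 0.365 points. It came to -0.225 points when nuclei were thinned to 5000 UMIs, with 4 of 976 and 8 of 1038 nuclei left in DISC1-N and 4 of 1128 and 12 of 941 in WT libraries (497 and 483 shallower nuclei left out in DISC1-N and 814 and 582 in WT), and to -0.133 points without WT replicate 1. As a share of all nuclei that passed the filters, Rspo2 Adamts2 nuclei were 0.907% and 0.759% in DISC1-N and 0.492% and 0.670% in WT libraries. There both DISC1-N libraries lay above both WT libraries, by 0.252 points in the means (exact permutation p = 0.333, the smallest possible). Of the Rspo2 nuclei with a margin of 2 or more either way, those led by Adamts2 made up 44.2% and 44.0% in DISC1-N and 43.1% and 59.3% in WT libraries (exact permutation p = 1). WT replicate 2 stood apart there, and without it the difference was 1.00 points in place of -7.13.

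No gene was called between DISC1-N and WT in the summed counts of the Rspo2 Adamts2 nuclei (0 of 7597 tested, 0%). At an unadjusted p under 0.05 there were 129 genes by edgeR, 13 by DESeq2 and 122 by limma-voom, and neither DESeq2 nor limma-voom made a call. When replicate number entered the edgeR fit as a block, 8 genes were higher and 9 lower in DISC1-N (0.105% and 0.118%) while the same design in DESeq2 gave no call and 11 genes at an unadjusted p under 0.05. Without the 28 nuclei in clusters of other classes the blocked edgeR fit called none (316 at an unadjusted p under 0.05).

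Ptpdc1, a phosphatase gene at chr13:48577872-48625664, had 47.9 and 38.7 CPM in DISC1-N and 14.4 and 12.6 CPM in WT libraries, with UMIs in 17 of 38 and 27 of 62 against 5 of 28 and 7 of 54 nuclei. The groups did not overlap, but genes were named for a low p and for DISC1-N lying on 1 side of WT, which favours this. The log2 fold change was 1.68 ± 0.47 (SE, adjusted p = 1.00), 1.66 ± 0.43 with the block (adjusted p = 0.0490) and 1.16 with the block but without the clusters of other classes (adjusted p = 0.985). Alcam, a gene of an immunoglobulin adhesion protein at chr16:52248996-52454074, had 601 and 516 CPM in DISC1-N and 359.9 and 377 CPM in WT libraries, and kept 558 and 504 CPM and 319 and 357 CPM when the nucleus with most UMIs was left out of each library. With the block its log2 fold change was 0.59 ± 0.12 (adjusted p = 0.0023), and 0.51 in that fit without the clusters of other classes (adjusted p = 0.578).

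Several other calls rested on few nuclei. Kirrel3, another immunoglobulin adhesion gene at chr9:34485894-35036716, had 319 and 166 CPM in DISC1-N and 149.7 and 72.2 CPM in WT libraries, but 1 nucleus held 86 of the 160 UMIs of DISC1-N replicate 1. Without the top nucleus of each library it had 153 and 126 CPM in DISC1-N and 109 and 58.3 CPM in WT libraries, so the groups stayed apart by a smaller step. The blocked log2 fold change was 1.15 ± 0.19 (adjusted p = 2.2e-06), and 0.90 in that fit without the clusters of other classes (adjusted p = 0.392). Kirrel3 was far higher in Rspo2-0 nuclei, at 713 ± 53.5 CPM, and overlaps other gene models on both strands. Stk10, a kinase gene, had 12 and 10.9 CPM in DISC1-N and 31.7 and 64.3 CPM in WT libraries (blocked log2 fold change -2.16 ± 0.42, adjusted p = 2.4e-04). However, 9 of the 11 UMIs of WT replicate 1 came from 1 nucleus, which leaves 5.96 CPM without it. With nuclei of margin 1 included, the blocked log2 fold change of Stk10 was 0.015, so the fall was lost. Every Atp12a UMI of each library came from 1 nucleus, and Pla2g6 rested on single nuclei as given above.

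The other falls named by rule were Ppia, the cyclophilin A gene, with 142 and 69.0 CPM in DISC1-N and 199 and 165 CPM in WT libraries (-0.87 ± 0.20 with the block), and AC149090.1, a gene model on an unplaced contig, with 649 and 405 CPM in DISC1-N and 800.5 and 959 CPM in WT libraries (-0.80 ± 0.11). AC149090.1 showed the same order in Rspo2-0 nuclei, at 543 and 322 CPM in DISC1-N and 594 and 769 CPM in WT libraries. Of the lists, only the mitochondrially encoded genes had calls in the blocked fit, apart from Adarb2 among the inhibitory markers. Of those mitochondrial genes 5 of 9 were lower in DISC1-N, with a median log2 fold change of -1.11. Of all 7597 genes tested 0.118% were lower. In WT replicate 2, 1 Rspo2 Adamts2 nucleus had 1% or more mitochondrial UMIs, against a median of 0.0125% there. The other libraries had no such nucleus, and the blocked fit was not repeated without it. Oxidative phosphorylation genes had a median of -0.38 over 68 tested and no call. The part of nuclear quality or free RNA in this was not tested.

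Genes that were high in these nuclei showed small fitted differences between genotypes. Etv1 differed by 0.04 ± 0.10, Cdh9 by 0.00 ± 0.08, Dlc1 by -0.08 ± 0.10 and Tnc by -0.05 ± 0.31 on the log2 scale in the blocked fit, none of them called. Gpc5 had 0.39 ± 0.11 (adjusted p = 0.10), with all DISC1-N libraries above WT libraries. Disc1 itself had 7 and 12 UMIs in DISC1-N and 1 and 4 UMIs in WT libraries, or 14 and 14.5 CPM against 2.88 and 6.28 CPM, too few to pass the filter. In Rspo2-0 nuclei it had 15 and 16.3 CPM in DISC1-N and 14.2 and 11.9 CPM in WT libraries. Wfs1, the endoplasmic reticulum gene in the study's title, had 8 and 1 UMIs in DISC1-N and 5 and 4 UMIs in WT libraries. A Wfs1 UMI was found in 14 of the 182 nuclei (7.69%), in 11.9% of Rspo2 Col5a2 nuclei and in 10.2% of the shallower Rspo2-0 nuclei. Wfs1 was called lower against all Rspo2-0 nuclei. That call was lost against the stricter ones (-0.66, edgeR adjusted p = 0.318) and at matched depth (-0.64, adjusted p = 0.361).

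**Figure D5:**
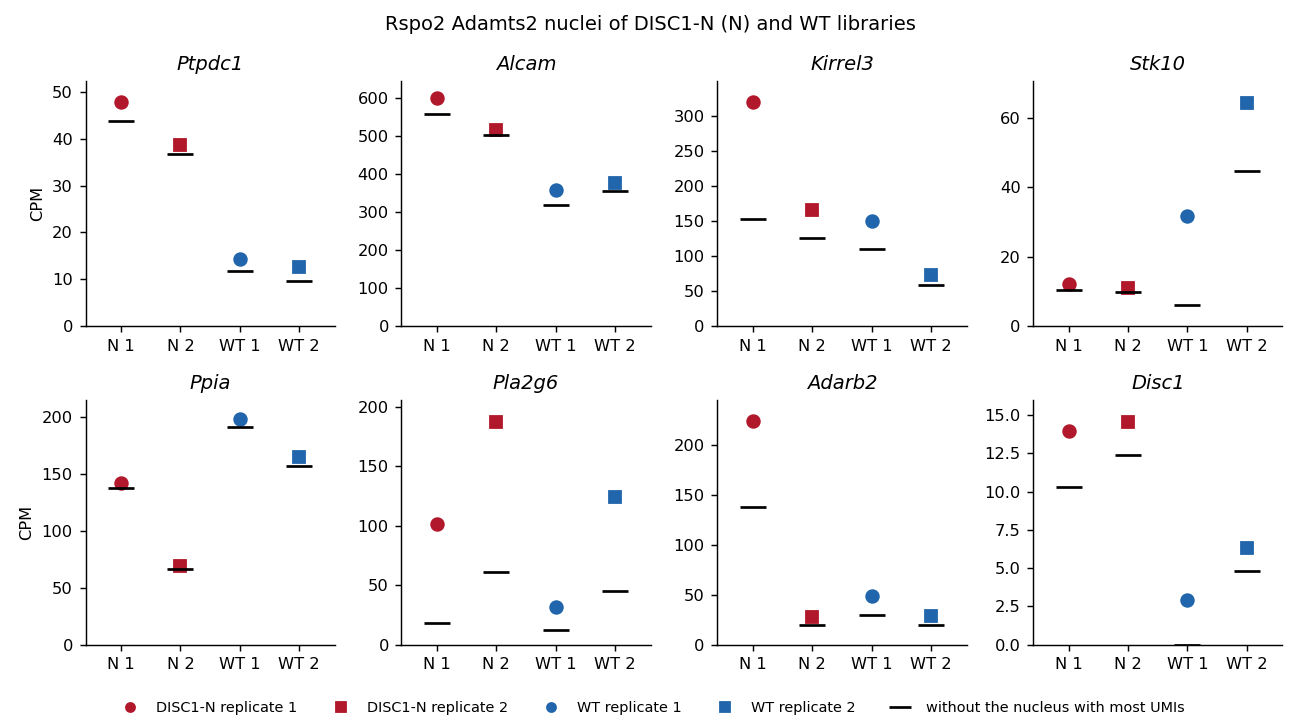
Summed level (CPM, linear axes from 0) of 8 genes in Rspo2 Adamts2 nuclei of DISC1-N (N) and WT libraries, with a bar at the level without the nucleus that holds most UMIs of the gene. Ptpdc1 and Alcam keep the groups apart without that nucleus, Kirrel3 does so by a smaller step, and Pla2g6 falls to 12.2 to 61.0 CPM. Ptpdc1, Alcam and Kirrel3 were named by a rule that favours groups lying apart.

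Whether a genotype difference was particular to these nuclei was asked with the interaction of genotype and population. The difference in Rspo2 Adamts2 nuclei exceeded or fell below that in Rspo2-0 nuclei in 9 and 4 genes (0.0597% and 0.0265% of 15088 tested). The level of Kirrel3 in Rspo2-0 nuclei was 647 and 728 CPM in DISC1-N and 702 and 775 CPM in WT libraries, and its interaction came to 1.31 ± 0.18 on the log2 scale (adjusted p = 5.4e-09). Against Rspo2-0 nuclei with at most 1 Gad UMI, 1 gene was called, which was Kirrel3 (1.33, adjusted p = 0.0137). With the Rspo2 Col5a2 nuclei in their place, Kirrel3 came to 1.18 (adjusted p = 0.124) and 2 other genes were called.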

How the data were processed

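Single-nucleus 3′ RNA counts of 4 libraries (DISC1-N and WT, 2 each) were analysed. The deposited values are whole UMI counts with no normalization. The authors produced these counts with Cell Ranger, version 7.0.0 for replicate 1 and 6.0.2 for replicate 2, per the file headers. The submitters' processing notes name 7.0.0 and mm10. Whether introns and strand were used is not given in the sources used here. Coordinates come from GENCODE vM21 on mm10, in which 32235 of 32285 features matched. Of the 125 genes given levels, 45 overlap a gene of the same strand and 60 one of the other strand.

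The members and gene lists were chosen with earlier results of these data known. Counts of Rspo2 Adamts2 nuclei (347303 to 826177 UMIs per library), Rspo2 Col5a2 nuclei and Rspo2-0 nuclei were summed per library and tested with edgeR 4.0.16 (R 4.3.3, TMM, filterByExpr with a minimum count of 10, glmQLFit and glmQLFTest), with library as a block between populations and without a block between genotypes. Genes were called at a Benjamini-Hochberg adjusted p under 0.05, and between populations counts of changed genes also needed a 2-fold change where stated. Rule genes were left out of all counts of lists. DESeq2 1.42.0 and limma-voom 3.58.1 were alternatives, as were other filters, stricter comparison nuclei, other margins and leaving out each library. Leaving out clusters led by markers of another class was added after seeing the data. Shares were compared with exact permutation tests and thinned to 5000 UMIs per nucleus. Clustering used scanpy 1.11.5 (2000 variable genes, 30 components, 15 neighbours, Leiden resolution 1). The fits were tested on simulated data. A few members of the lists are not reported here by name. Doublets were scored with Scrublet, at 0.8% per 1000 nuclei, and kept.

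Named genes were the 15 largest rises and 10 largest falls against Rspo2-0 nuclei, the 10 of each against Rspo2 Col5a2 nuclei (adjusted p under 0.05, mean of at least 20 CPM, same direction in all 4 libraries), called genotype genes of at least 20 CPM whose DISC1-N libraries lay on 1 side of WT, or the 3 lowest p where none was called, and the 5 lowest p of the interaction, without predicted, mitochondrial, ribosomal and sex-linked genes. Rule genes, Etv1, Disc1, Wfs1 and the 3 lowest p of each list were added. Lgr5, Wnt4, Kremen1, Lrrc4c, Pcsk2, Vgf, Scg2, Nptx1 and the markers of other classes were named after their values were seen. The replicate numbers pair a processing version, and the block is given beside the genotype results. Sums of nuclei carry the counting error of few nuclei, and the fits cannot separate nuclei that share a mouse.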

Additional observations from a re-analysis of the deposited data

Results flagged for a closer look

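The genotype difference in Rspo2 Adamts2 nuclei departed from that in Rspo2-0 nuclei by an interaction test (edgeR, adjusted p under 0.05) for 8 of the genes named here, each given as a log2 difference of differences. Kirrel3 came to 1.31 (adjusted p = 5.4e-09), Adarb2 to 1.499 (adjusted p = 7.4e-05), Alcam to 0.67 (adjusted p = 0.0042), P2rx4, a purinergic receptor gene, to 2.39 (adjusted p = 0.0042) and Nxph1, a neurexin ligand gene, to 1.30 (adjusted p = 0.0045). Gpc5 came to 0.57 (adjusted p = 0.0145), Stk10 to -2.05 (adjusted p = 0.0145) and mt-Cytb to -1.17 (adjusted p = 0.0159).

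Single nuclei carried much of several of these. P2rx4 had 172 and 1.21 CPM in DISC1-N and 8.64 and 11 CPM in WT libraries, with 79 of the 86 UMIs of DISC1-N replicate 1 in 1 nucleus. Nxph1 had 5.99 and 139 CPM in DISC1-N and 83.5 and 11 CPM in WT libraries, with 40 of 115 UMIs of DISC1-N replicate 2 and 24 of 29 of WT replicate 1 in 1 nucleus each, so replicates of 1 genotype were on opposite sides. Adarb2 had 224 and 27.8 CPM in DISC1-N and 48.9 and 28.2 CPM in WT libraries, and 45 of the 112 UMIs of DISC1-N replicate 1 came from 1 nucleus. mt-Cytb had 67.9 and 15.7 CPM in DISC1-N and 112 and 105 CPM in WT libraries, and WT replicate 2 held the 1 nucleus with 1% or more mitochondrial UMIs. Without the clusters of other classes Kirrel3 (1.18), Adarb2 (2.82), P2rx4 (2.69) and Stk10 (-2.25) stayed past the threshold in the same direction, while Alcam (0.60), Gpc5 (0.22) and mt-Cytb (-1.09) did not pass it, and Nxph1 reversed to -3.57 (adjusted p = 0.0352).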

How the results depend on the processing

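Genes named for the size of their change kept direction and call in 259 of 259 refits that tested them against Rspo2 Col5a2 nuclei and in 397 of 398 against Rspo2-0 nuclei, the exception being Pdgfra at matched depth (-1.23, adjusted p = 0.079). They were chosen from the same counts as the largest called changes, so such retention is largely built in. Called genes named from lists or for another reason kept direction and call in 572 of 678 refits against Rspo2 Col5a2 nuclei and in 1162 of 1285 against Rspo2-0 nuclei. Of 53 such genes against Rspo2 Col5a2 nuclei, 27 lost the call with DESeq2, 30 with no library block and 4 to 13 with 1 library left out, and 6 did without clusters of other classes, which were Kcnk9, Wls, Homer1, Npsr1, Nptx1 and Cacna1e. Against Rspo2-0 nuclei 22 of 81 lost it at matched depth. Reversals were P2rx4 at -0.39 with DESeq2 and -1.38 to 1.89 with 1 library left out (below 0 without DISC1-N replicate 1), Tshz2 at -0.014 without clusters of other classes, Kalrn at -0.020 at matched depth and, against Rspo2 Col5a2 nuclei, Adarb2 at -0.11 to 1.34 with 1 library left out (below 0 without DISC1-N replicate 1). Against Rspo2-0 nuclei the 1056 calls became 395 with a mean of at least 20 CPM, 482 with Slc17a7 at 2 or more, 479 at matched depth and 645 without clusters of other classes. The 155 calls against Rspo2 Col5a2 nuclei became 90 with DESeq2. Between genotypes the 0 calls became 8 with no filter, 17 with the replicate block, 7 with nuclei of margin 1 and the block, and 6 to 15 when 1 library was left out, the lone library being assumed to vary like the others. Deviations of same-numbered libraries correlated at 0.343 over 7597 genes. The block left both share differences at 0.691 and -7.13 points. The share difference was -0.225 points thinned to 5000 UMIs and -0.133 to 1.51 with 1 library left out, and the part led by Adamts2 differed by -15.3 to 1.00 points. Stk10 came to a log2 fold change of 0.015 with nuclei of margin 1 and the block. The 13 interaction calls became 1 against Rspo2-0 nuclei with at most 1 Gad UMI, 2 against Rspo2 Col5a2 nuclei and 8 without clusters of other classes, and Nxph1 reversed to -0.21 and -3.57 in the last pair. The cause of these shifts was not tested. With 28 to 62 nuclei per library, Disc1 and Wfs1 did not pass the filter of the genotype test. Their interaction with population was fitted at 1.21 ± 0.76 and -0.20 ± 0.74 (SE), neither called (adjusted p = 1).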
